A study of Mus musculus with 7 samples.

Results

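The genes described here encode proteins that the oocyte secretes: the growth factors Gdf9, Bmp15, Bmp6 and Fgf8, and the oocyte-secreted proteins Oosp1, Oosp2 and Oosp3. They were chosen by name as products known to be secreted by oocytes, with earlier results of these data known, and all 7 had a row among the 26019 genes of the deposited table. RNA was measured by Smart-Seq2, which copies polyadenylated RNA of a few cells into cDNA and amplifies it, in C57BL/6J mouse oocytes freed from secondary follicles, with 5 oocytes in each library. The KO libraries (n = 3) come from mice in which, per the series title and design text, the mitochondrial fusion gene Mfn2 was deleted (Mfn2-/-), whereas their genotype label reads Mfn1-/-. The WT libraries (n = 4) come from mice of the same strain. The design text gives 3 mice per group, so WT libraries may share a mouse, and n counts libraries throughout. Both groups are 8 weeks old per the protocol, and the age label of every library reads P1. The sources used here do not give the promoter or cell type that drove the deletion, nor which mouse each library came from. The p-values therefore reflect the spread among libraries, which may be technical.

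A growing oocyte directs the granulosa cells around it through proteins that it releases. GDF9 and BMP15 are related members of the TGF-beta family, made as precursors that are cut by proprotein convertases. They act on granulosa cells through the receptor BMPR2 and type I receptors, with SMAD2 and SMAD3 downstream of GDF9 and SMAD1, SMAD5 and SMAD9 downstream of BMP15. Mice without Gdf9 have follicles that stop at the primary stage. FGF8 acts with BMP15 on cumulus cells, where oocyte signals raise glycolysis. The OOSP proteins are small secreted proteins of oocytes, related to the placental protein PLAC1.

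The libraries held 6676076 to 8343915 reads in genes. Mfn2 RNA was at 7.27, 4.55 and 7.66 normalised counts in the KO libraries, against 35.3, 35.1, 15.0 and 29.2 in the WT libraries (limma adjusted p = 0.00571). Mfn1 averaged 330.3 ± 19.9 in KO and 289 ± 36.3 in WT (SD, n = 3 and 4; adjusted p = 0.499), so the RNA goes with the gene of the series title. A normalised count is a gene's read count divided by 1 scaling factor per library, which was close to 1. All 10 oocyte markers, among them Zp1, Zp2, Zp3, Ooep and Figla, had reads in every library. Their levels were not all equal between the groups. limma called 1 of 10, where 6.71% of all tested genes were called, and 5 had an unadjusted p under 0.05, against 21.8%. The median log2 fold change of these markers was 0.25. The called gene was the germ cell helicase gene Ddx4, which rose to 1904 ± 535 in KO, against 785 ± 165 in WT (limma adjusted p = 0.00287). Nlrp5, a maternal effect gene, averaged 26789 ± 8902 in KO and 12964 ± 2889 in WT without overlap (adjusted p = 0.0976). Of 14 granulosa cell markers, most had few reads: Foxl2 was at 0.908 to 3.64 in KO libraries and 0 to 1.08 in WT libraries. Their summed value ran from 3844 to 5032 in KO libraries and from 3235 to 4285 in WT libraries, most of it from Serpine2. Inha, an inhibin subunit gene of granulosa cells singled out with its values known, stood at 54.5, 395 and 338 in the KO libraries and at 11.9 to 66.7 in the WT libraries. KO 2 and KO 3 thus carried more Inha RNA than KO 1. limma did not call Inha (adjusted p = 0.146), while edgeR (0.00167) and DESeq2 (0.00843) did. The median log2 fold change of the 12 tested granulosa markers was 0.85, against -0.010 over all tested genes. An unadjusted limma p under 0.05 was found for 7 of them, against 21.8% of all tested genes. Some granulosa markers lay the other way from Inha. Cyp19a1, the aromatase gene and the single marker of this list that limma called, fell to 78.2 ± 25.1 in KO, against 179 ± 28.4 in WT (adjusted p = 0.00251), and was lowest in KO 2. Fgfr2 averaged 76.5 ± 43.9 in KO and 122 ± 28.3 in WT, and Inhba 1.21 ± 1.39 in KO and 4.38 ± 2.81 in WT, neither of them called. The marker genes given here with values were picked with those values known. Granulosa markers at 0 numbered 0 to 1 in KO libraries and 2 to 4 in WT libraries. The 6 theca and stroma markers in the table summed to 12.7 to 23.6 in KO and 15.0 to 29.8 in WT, and the 2 blood and endothelial markers to 129 to 188 in KO and 136 to 193 in WT. For RNA of such other cells, fewer cells and less RNA per cell cannot be told apart in pooled libraries.

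The genes lie on 4 chromosomes. In GENCODE M21 (GRCm38), Gdf9 (ENSMUSG00000018238.6) is at chr11:53431023-53437904 on the plus strand and Bmp15 (ENSMUSG00000023279.7) at chrX:6314107-6320721 on the minus strand. Bmp6 (ENSMUSG00000039004.6) is at chr13:38345107-38500302 on the plus strand and Fgf8 (ENSMUSG00000025219.13) at chr19:45736798-45742915 on the minus strand. The Oosp genes form a cluster elsewhere on chromosome 19. Oosp2 (ENSMUSG00000055895.6, chr19:11647279-11660559, minus strand) is followed after 6900 bases by Oosp1 (ENSMUSG00000041857.10, chr19:11667460-11691150, minus strand). Oosp3 (ENSMUSG00000055933.13, chr19:11697055-11711874, plus strand) begins 5904 bases further on, so Oosp1 and Oosp3 start next to each other and run in opposite directions.

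Promoter sequence is shown for Bmp15, the abundant factor on the X chromosome, and for the neighbours Oosp1 and Oosp2. The centred profiles of these neighbours differed least over the libraries after those of Oosp1 and Oosp3. RefSeq (GRCm38.p6) promoter entries matched 4 of the 7 genes. The bases shown lie upstream of both the RefSeq and the GENCODE start and read 5′ to 3′ on the gene's strand, and for Bmp6 no base of the entry met that condition. Capitals mark matches to the E-box CANNTG, the site type bound by the oocyte factor FIGLA with its partners, to TAATTG, an element bound by the oocyte homeobox factor NOBOX, or to the TATA box letters TATAAA, each searched on both strands.
Bmp15 (chrX:6320725-6320974, minus strand): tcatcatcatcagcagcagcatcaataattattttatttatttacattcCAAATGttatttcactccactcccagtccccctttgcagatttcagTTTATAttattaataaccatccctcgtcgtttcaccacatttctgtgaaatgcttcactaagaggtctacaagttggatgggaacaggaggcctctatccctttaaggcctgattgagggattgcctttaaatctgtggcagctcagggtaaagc
Oosp1 (chr19:11691151-11691301, minus strand): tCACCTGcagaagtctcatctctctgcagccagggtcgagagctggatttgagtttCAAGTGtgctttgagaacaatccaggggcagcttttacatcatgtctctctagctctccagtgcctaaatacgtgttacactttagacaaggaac
Oosp2 (chr19:11660560-11660809, minus strand): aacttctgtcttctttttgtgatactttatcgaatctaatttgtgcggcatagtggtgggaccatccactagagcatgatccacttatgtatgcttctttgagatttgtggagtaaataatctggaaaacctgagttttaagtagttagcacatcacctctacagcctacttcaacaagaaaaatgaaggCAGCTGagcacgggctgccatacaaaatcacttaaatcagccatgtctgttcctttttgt
The Bmp15 window held 1 E-box, 201 bases before the RefSeq start, and 1 match to the TATA letters on the opposite strand, 155 bases before it. The Oosp1 window held 2 E-boxes, 249 and 194 bases before the RefSeq start, and the Oosp2 window held 1, at 60 bases. The letters TAATTG were found in none of these 3 windows. No 2 matches overlapped. Among 32851 promoter entries, 66.2% held an E-box in a window of 250 bases and 49.5% in the 151-base window used for Oosp1. The NOBOX letters occurred in 7.17% and 4.69% of these windows and the TATA letters in 12.4% and 7.34%. E-box matches are thus common in windows of this length, and a match is a description of letters, not of binding.

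Most of the oocyte-secreted factors were abundant in both genotypes, and for 6 of the 7 the estimated KO level was 0.880-fold to 1.08-fold that of WT. Gdf9 was the 11th most abundant of 19227 tested genes by mean normalised count, Bmp15 the 66th, Oosp1 the 82nd and Oosp3 the 198th. Oosp2 was number 323, Fgf8 number 986 and Bmp6 number 3791. By limma, 0 of the 7 genes were called, which means an adjusted p under 0.05, where 6.71% of all tested genes were. At an unadjusted p under 0.05 there was 1, Fgf8, against 21.8% of all tested genes. edgeR on the recovered reads called 0 of the 7 (6.53% of all genes) and DESeq2 called 1, again Fgf8 (7.67%). The DESeq2 share counts as not called 4101 genes to which DESeq2 gave no adjusted p, none of them among the 7. The log2 fold change of KO over WT was negative for 4 and positive for 3, with a median of -0.065 beside -0.010 over all tested genes.

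**Figure D1:**
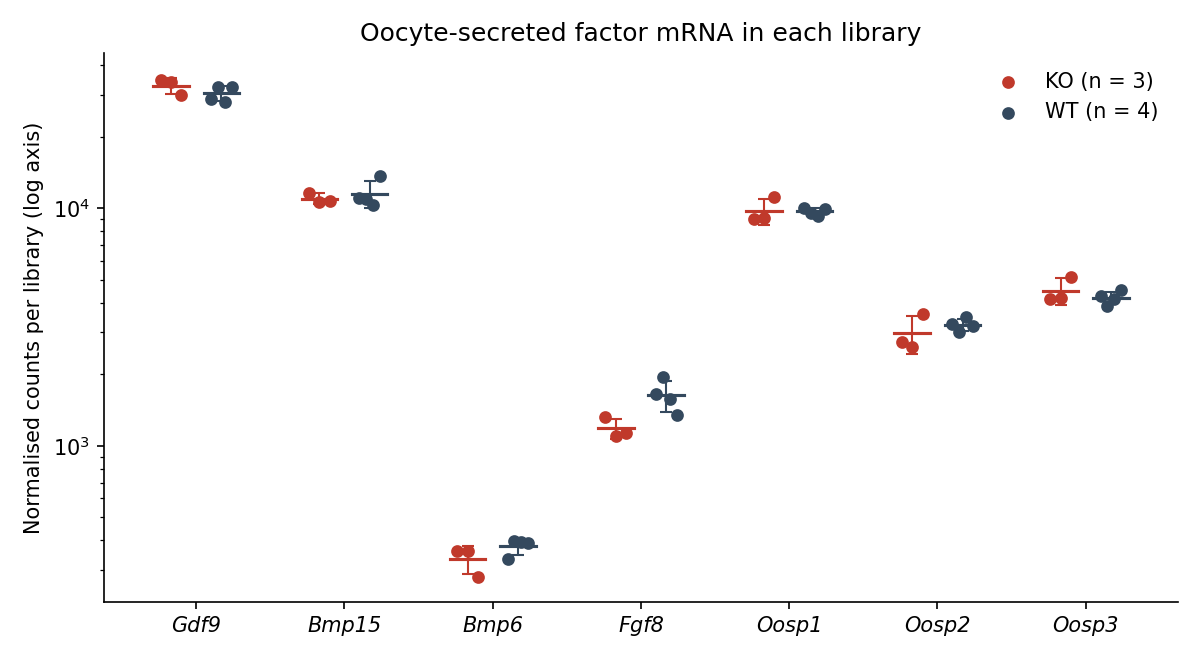
Normalised counts (log axis) of the 7 genes in each of 3 KO (left, red) and 4 WT (right, dark) libraries, with the mean and SD. Gdf9 is highest and Bmp6 lowest in every library, and the libraries of the groups separate at Fgf8, with KO at 1100 to 1316 and WT at 1342 to 1941.

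Gdf9, whose protein is needed for follicles to pass the primary stage, was at 34582, 34140 and 30034 normalised counts in the KO libraries and at 28921, 32430, 28129 and 32453 in the WT libraries. KO 1 and KO 2 lay above every WT library and KO 3 among them. Its mean was 32918 ± 2508 in KO and 30483 ± 2284 in WT (SD, n = 3 and 4), or 0.11 higher on the log2 scale (SE 0.11), which limma did not call (adjusted p = 0.592). The 95% confidence interval ran from a 0.927-fold to a 1.26-fold level. Gdf9 alone took 0.401% to 0.506% of all normalised counts in KO libraries and 0.392% to 0.456% in WT libraries.

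Bmp15, the partner with which GDF9 can form a heterodimer, had 11635, 10585 and 10726 normalised counts in KO libraries against 11108, 10992, 10365 and 13715 in WT libraries. The KO values all fell inside the WT range, whose top was set by WT 4. Bmp15 averaged 10982 ± 570 in KO and 11545 ± 1483 in WT (log2 fold change -0.065, SE 0.12; limma adjusted p = 0.800; 95% interval 0.809-fold to 1.13-fold). Without WT 4 the log2 fold change was 0.021. For neither GDF9 family gene did the interval reach a 2-fold change.

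The balance of both RNAs was compared per length, since longer transcripts give more reads. Gdf9 over Bmp15, in normalised counts per kilobase of merged exons (2.031 kb and 3.06 kb), was 4.48, 4.86 and 4.22 in the KO libraries and 3.92, 4.45, 4.09 and 3.57 in the WT libraries. The ratio averaged 4.52 ± 0.322 in KO and 4.01 ± 0.366 in WT, and the groups overlapped. It was not tested. Over all 7 libraries its mean was 4.23, and 2.49 when coding length was used in place of exon length.

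Bmp6, a BMP ligand made by oocytes and other cells, was the least abundant of the set. It had 359.8, 360.9 and 280.1 normalised counts in KO libraries and 332.7, 396.2, 391.6 and 388.8 in WT libraries. KO 3 was the lowest of the 7 libraries, WT 1 was the lowest WT library, and the groups overlapped (log2 fold change -0.18, SE 0.16; limma adjusted p = 0.534; 95% interval 0.704-fold to 1.10-fold). The last exon of Bmp6 shares 224 bases with the 3′ end of Txndc5, a disulfide isomerase gene on the other strand, and the libraries carry no strand. Txndc5, looked at because of this overlap, was also lowest in KO 3 within KO (908.5, 935.5 and 645.4) and in WT 1 within WT (758.9, against 995.9, 975.8 and 1034 in the other WT libraries). Whether reads of one gene were counted for the other was not tested. For the other 6 genes no 75-base stretch of their GENCODE transcripts occurred in a transcript of another gene, and for Bmp6 3.92% did, all in Txndc5.

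Fgf8, the FGF ligand that oocytes send to cumulus cells, had the log2 fold change furthest from 0 among the 7. Its values were 1316, 1100 and 1130 normalised counts in the KO libraries and 1653, 1941, 1580 and 1342 in the WT libraries. Every KO library lay below every WT library, with KO 1 and WT 4 close to each other. Groups that do not overlap, with KO lower, were found for 9.83% of all tested genes, and in either direction for 19.2%. The mean was 1182 ± 117 in KO and 1629 ± 247 in WT, a log2 fold change of -0.45 (SE 0.14; 95% interval 0.598-fold to 0.891-fold), and the limma adjusted p of 0.0514 missed the threshold. DESeq2 gave 0.0319 and edgeR 0.0586. The adjusted p was 0.0324 without KO 1 and 0.0340 without WT 4, and it ranged up to 0.183 when another library was left out. With a term for each library's granulosa marker level it was 0.891 (log2 fold change -0.25). That level, a mean of log2(value + 1), was 4.23, 4.90 and 4.88 in KO libraries and 4.19, 3.42, 4.02 and 3.63 in WT libraries. The groups do not overlap in it, so the term cannot tell granulosa RNA from genotype. In the same limma fit Mfn2 itself had an adjusted p of 0.689.

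**Figure D2:**
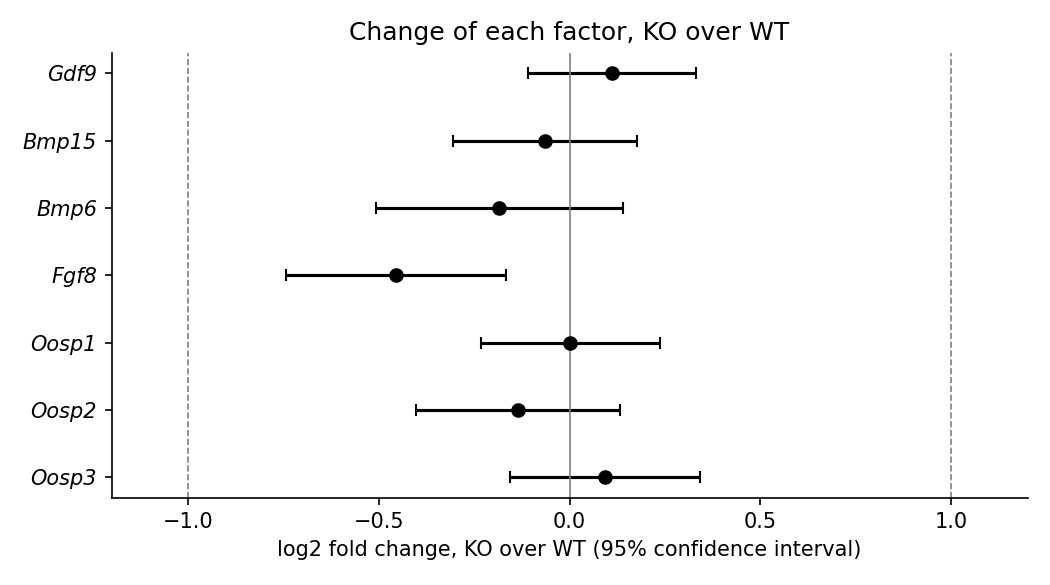
Log2 fold change of KO over WT for the 7 genes, with 95% confidence intervals from limma (3 KO and 4 WT libraries). Dashed lines mark a 2-fold change. The Fgf8 interval alone excludes 0, and no interval reaches a dashed line.

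The Oosp cluster held 3 abundant genes, and Oosp1 had the highest level among them. It had 9050, 9064 and 11164 normalised counts in the KO libraries and 10044, 9578, 9268 and 9913 in the WT libraries. KO 3 was above and KO 1 and KO 2 were below the WT range. The mean was 9759 ± 1216 in KO and 9701 ± 349 in WT (log2 fold change 0.0022, SE 0.11; limma adjusted p = 0.994; 95% interval 0.851-fold to 1.18-fold).

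Oosp2 had 2730, 2602 and 3588 normalised counts in KO libraries against 3246, 3021, 3491 and 3183 in WT libraries. Again KO 3 exceeded the WT libraries while KO 1 and KO 2 lay under them (log2 fold change -0.13, SE 0.13; limma adjusted p = 0.593; 95% interval 0.757-fold to 1.10-fold). Oosp3 had 4132, 4208 and 5158 in KO libraries against 4254, 3881, 4154 and 4508 in WT libraries (log2 fold change 0.09, SE 0.12; adjusted p = 0.704; 95% interval 0.898-fold to 1.27-fold). Here KO 3 was above the WT range and the other KO libraries were within it. Without KO 3 the log2 fold changes were -0.10 for Oosp1, -0.28 for Oosp2 and -0.0081 for Oosp3, none of them called.

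**Figure D3:**
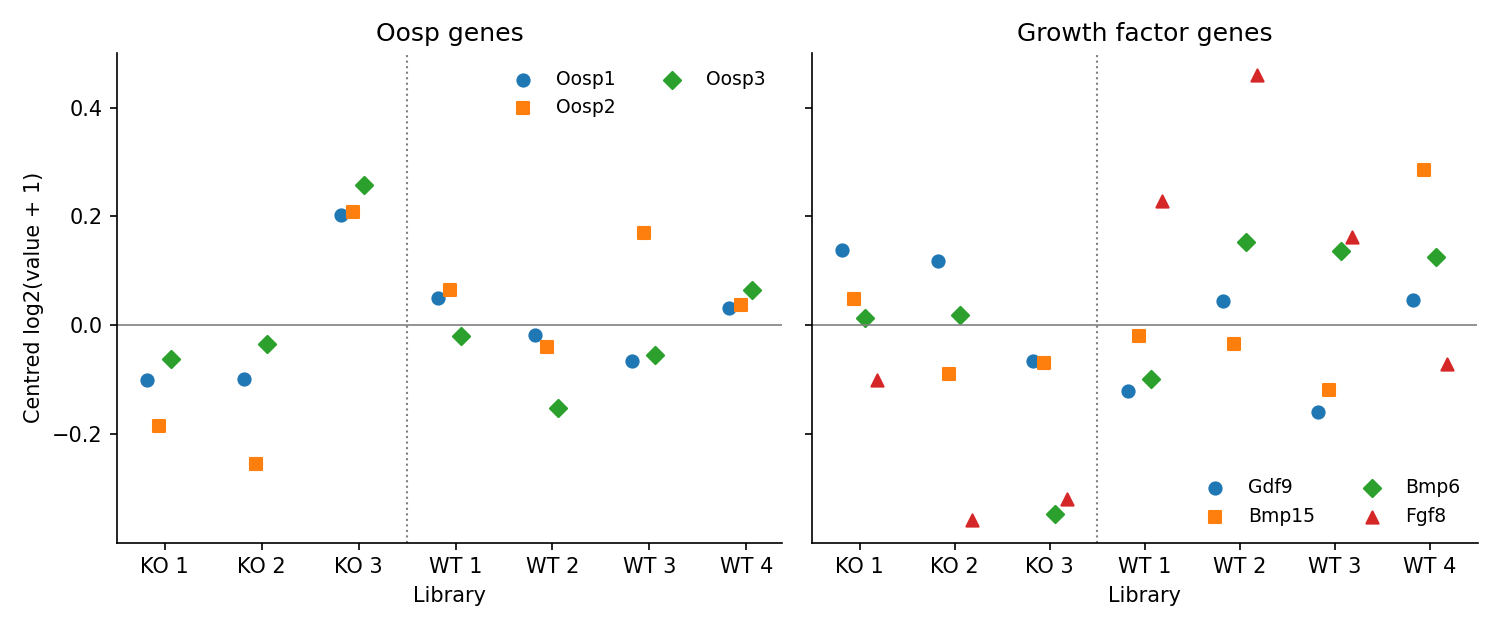
Values of each library relative to the gene's own mean, on the log2(value + 1) scale, for the Oosp genes (left panel) and the 4 growth factor genes (right panel), with KO libraries left of the dotted line. The 3 Oosp genes are all highest in KO 3, and Fgf8 lies below its mean in every KO library.

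The library-to-library variation was compared by the root mean square difference between centred log2 profiles over the 7 libraries. The profiles were not scaled, so genes that vary little have small differences whatever their pattern. Among the 21 pairs of these genes, the smallest difference was that of Oosp1 and Oosp3 (0.0681), the next that of Oosp1 and Oosp2 (0.112), and the third that of Gdf9 and Bmp15 (0.134). The largest was between Fgf8 and Oosp3 (0.367). The SD within groups on the log2 scale was 0.110 for Gdf9 and 0.191 for Fgf8, the ends of the range for the 7 genes, and its median over the 4275 genes with a mean of at least 300 normalised counts was 0.179. It lay below that median for 6 of the 7 genes, but the 4275 genes were not matched to them in level. Whether the 7 genes vary less than genes of like level was not tested. Among KO libraries alone the log2 SD was 0.174 for Oosp1, 0.250 for Oosp2 and 0.178 for Oosp3, against 0.0521, 0.0864 and 0.0893 among WT libraries.

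Among 6661 other genes with a mean of at least 100, the profiles nearest to Gdf9 were those of Gfm1, a mitochondrial translation elongation factor gene (difference 0.0487), Spop, which encodes a ubiquitin ligase adaptor (0.0516), and Elp2, an Elongator subunit gene (0.0521). The median difference from Gdf9 over these genes was 0.236. Nearest to Bmp15 were Atp6v0b, a subunit gene of the vacuolar proton pump (0.0267), Tmem199 (0.0585) and Dnajc5, a chaperone gene (0.0603), with a median of 0.248. Atp6v0b was at 703.1, 650.0 and 662.9 in KO libraries and at 689.3, 694.4, 660.8 and 873.0 in WT libraries, with WT 4 highest as for Bmp15.

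Per kilobase of merged exons, the levels were ordered alike in nearly every library. Gdf9 was first with 15523 ± 1246 normalised counts per kilobase (SD over 7 libraries), followed by Oosp1 with 10006 ± 766. Oosp3 had 5259 ± 498 and Oosp2 4606 ± 541, and their ranges overlapped, with Oosp2 above Oosp3 in WT 3. Bmp15 came next with 3694 ± 372, its range overlapping that of Oosp2, then Fgf8 with 1065 ± 225 and Bmp6 with 91.9 ± 10.6. With coding length in place of exon length Bmp15 moved above Oosp3 and Oosp2, to 9612 ± 969 against 7398 ± 701 and 6196 ± 728 per kilobase, with its range overlapping that of Oosp3. Its annotated exons total 3060 bases, of which 1176 are coding. The 7 genes together took 0.818% to 0.934% of all normalised counts in KO libraries and 0.807% to 0.879% in WT libraries.

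Genes that surround these factors in their pathways were read from 9 lists with 122 genes, 87 of them tested. In all, 6 were called higher and 3 lower in KO, or 10.3% of those tested, beside 6.71% of all genes (3.09% higher and 3.63% lower). The median log2 fold change was 0.06 over these genes and -0.010 over all tested genes. edgeR called 12 of these genes, where it called 6.53% of all tested genes, and DESeq2 called 13, where it called 7.67%. DESeq2 gave no adjusted p to 14 of these genes. By limma, the number called was 5 without KO 2 or without WT 3 and 14 without KO 1. Over all genes these fits called 604, 611 and 1772. Without trend and robust estimation 1 pathway gene was called, where 106 of all genes were. With the term for granulosa marker level 0 were called, in a fit that called 3 of all genes. Of the 9, exons of Bmp5, Fgf10 and Smad5 overlap those of a gene of the Gm-number type, by 1878, 123 and 100 bases, and reads of such pairs cannot be told apart without strand.

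Of 17 tested FGF genes, 1 rose and 2 fell (median log2 fold change -0.23). Spry4, an intracellular inhibitor that FGF signalling itself induces, had 542, 324 and 288 normalised counts in KO libraries and 662, 696, 764 and 893 in WT libraries. Each KO library was below each WT library (log2 fold change -1.02, SE 0.19; by limma, adjusted p = 0.00359). The call held in all 7 fits that left out 1 library, and was lost without trend and robust estimation (adjusted p = 0.110). The log2 fold change was -0.46 without KO 2 and KO 3 together (adjusted p = 0.354) and also -0.46 with the term for granulosa marker level (0.795). Fgf10, a further ligand, had 3.63, 3.64 and 0 in KO libraries and 10.5, 13.8, 34.6 and 27.1 in WT libraries (adjusted p = 0.00553), again without overlap. Fgfrl1, a receptor without a kinase domain, rose to 19.7 ± 10.2 in KO, against 5.68 ± 2.79 in WT (adjusted p = 0.0479). That call was lost without KO 1, KO 2 or any 1 of the 4 WT libraries, with an adjusted p of up to 0.235. Chosen with their values known, the feedback gene Spry1 had 442 ± 94.2 in KO and 605 ± 109 in WT (adjusted p = 0.104) and Etv5, a transcription factor gene that FGF signalling induces, had 9.22 ± 6.50 and 20.1 ± 5.70 (adjusted p = 0.113). The Spry1 libraries of the groups did not overlap, and those of Etv5 did. The groups of Fgf9, a ligand gene also named after its values were seen, did not overlap either, with KO higher. Fgf9 averaged 167 ± 4.04 in KO and 134 ± 12.4 in WT (limma adjusted p = 0.306). Groups that do not overlap, in either direction, were found for 19.2% of all tested genes. The list also holds Spred1, Spred2, Dusp6 and Etv4, with log2 fold changes of -0.03, -0.23, -0.26 and -0.72. None of them was called (limma adjusted p = 0.954, 0.771, 0.893 and 0.570), their groups overlapped, and Dusp6 and Etv4 had few reads.

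**Figure D4:**
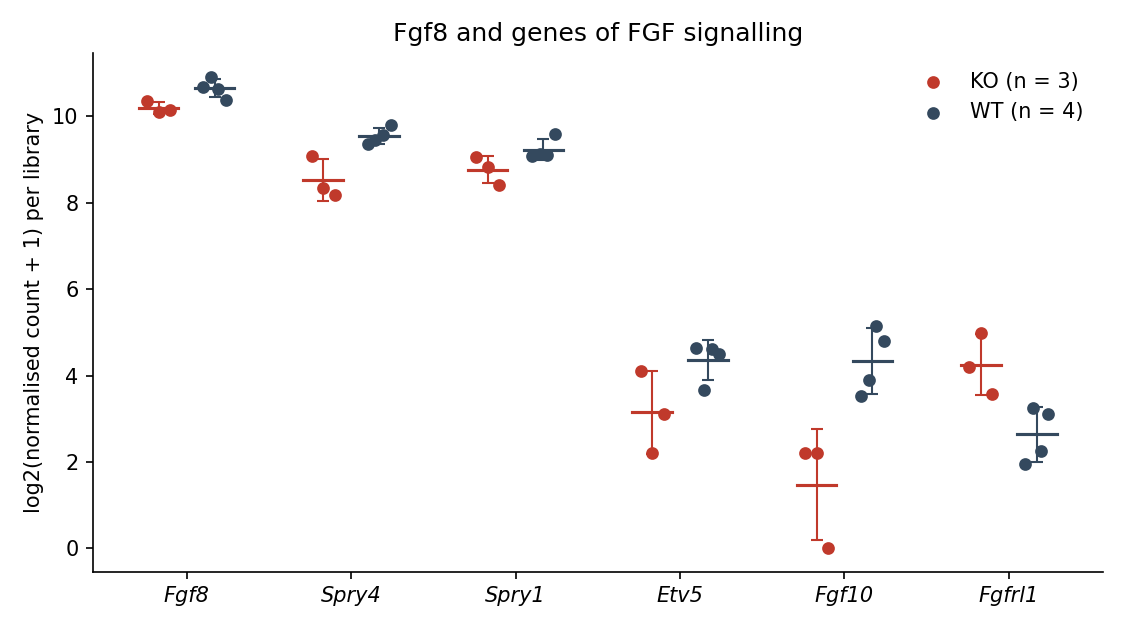
Log2(normalised count + 1) of Fgf8 and 5 genes of FGF signalling in 3 KO (left, red) and 4 WT (right, dark) libraries, with the mean and SD. KO and WT libraries separate for Fgf8, Spry4, Spry1, Fgf10 and Fgfrl1, and overlap for Etv5. Groups separate, in either direction, for 19.2% of all tested genes. Spry1 and Etv5 were picked with their values known, and the other genes of the FGF list are not drawn. Among those not drawn, Fgf9 separates with KO higher.

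Receptors and SMAD proteins of the TGF-beta family showed 1 call. None of 11 tested receptor genes was called by limma, 0 by edgeR and 1 by DESeq2 (median log2 fold change 0.13). At an unadjusted limma p under 0.05 there were 3, against 21.8% of all tested genes. Bmpr1b, a type I receptor for BMPs and the receptor gene with most reads, averaged 807 ± 74.3 in KO and 735 ± 42.9 in WT (adjusted p = 0.619). The receptors of the GDF9 signal, named after their values were seen, were Bmpr2 (202 ± 27.8 in KO and 213 ± 33.7 in WT; adjusted p = 0.865) and Tgfbr1 (166 ± 40.8 and 104 ± 12.1; adjusted p = 0.0594). Of 8 SMAD genes, Smad5, which relays BMP signals, rose to 102 ± 5.36 in KO, against 56.5 ± 9.15 in WT (log2 fold change 0.85, SE 0.22; adjusted p = 0.0262; lost without KO 1, KO 2, KO 3, WT 1 or WT 3, up to 0.0809). Smad2 and Smad3, downstream of GDF9 and chosen after seeing their values, had 962 ± 30.1 and 262 ± 61.7 in KO, with 858 ± 39.04 and 324 ± 48.6 in WT. Neither was called (adjusted p = 0.482 and 0.320).

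Extracellular inhibitors and processing enzymes act on the ligands before they reach a receptor. Of 5 tested inhibitor genes, Twsg1, which binds BMPs together with chordin, rose to 184 ± 13.3 in KO, against 100.3 ± 15.0 in WT (log2 fold change 0.88, SE 0.19; limma adjusted p = 0.00843). That call was kept with any 1 library left out. It was lost without trend and robust estimation (adjusted p = 0.0707) and with the term for granulosa marker level (0.400). None of 4 tested processing genes was called by limma, edgeR or DESeq2 (median log2 fold change -0.42). At an unadjusted limma p under 0.05 there was 1, against 21.8% of all tested genes. Pcsk6, a proprotein convertase, had 69.0 ± 8.24 in KO and 89.4 ± 4.23 in WT (adjusted p = 0.311), and Furin, named after its values were seen, had 43.6 ± 8.09 and 62.2 ± 19.6 (adjusted p = 0.321).

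Other ligands of the TGF-beta family included 1 of 10 that rose and 1 that fell by limma. edgeR and DESeq2 each called 3 of this list, among them Inha. Bmp5, a BMP ligand related to BMP6, fell to 371 ± 89.0 in KO, against 603 ± 86.6 in WT (log2 fold change -0.72, SE 0.17; limma adjusted p = 0.0161; lost without KO 2 or WT 1, up to 0.0957). Bmp7, of the same BMP subgroup, rose to 33.1 ± 8.82 in KO, against 12.4 ± 4.38 in WT (1.38, SE 0.38; adjusted p = 0.0319; lost without KO 1, KO 2, WT 2, WT 3 or WT 4, up to 0.116).

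**Figure D5:**
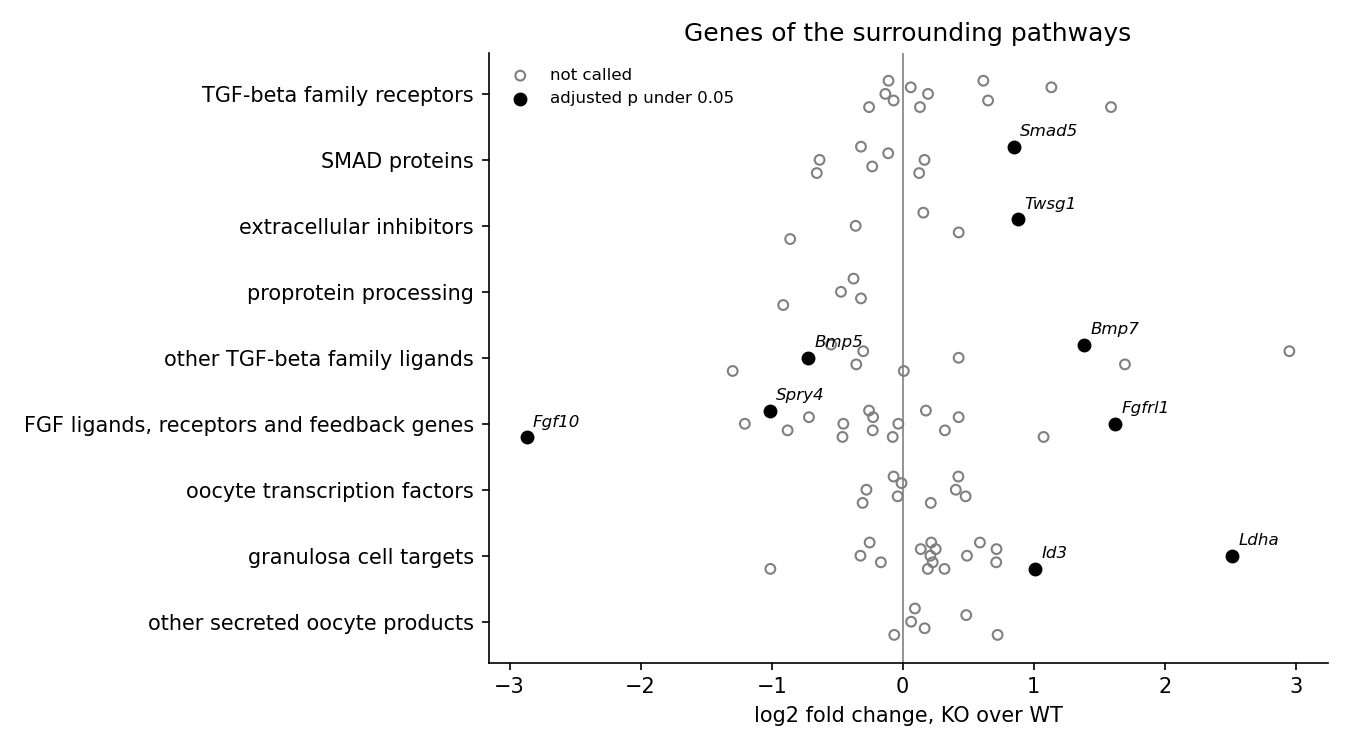
Log2 fold change of KO over WT for 87 genes in 9 lists, with filled points for adjusted p under 0.05 by limma. The 9 filled points lie on both sides of 0, with 6 higher and 3 lower in KO.

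Genes that act before and after the secreted factors were read last. None of 9 tested oocyte transcription factor genes was called by limma, and 1 each by edgeR and DESeq2. At an unadjusted limma p under 0.05 there were 3, against 21.8% of all tested genes. Nobox, which activates oocyte genes, had 5732, 7266 and 3141 normalised counts in KO libraries and 6223, 5656, 4287 and 5342 in WT libraries (adjusted p = 0.921), with KO 2 highest and KO 3 lowest of the 7. Figla, named after its values were seen, averaged 1222 ± 224 in KO and 869 ± 89.6 in WT (limma adjusted p = 0.0514). It was the gene that edgeR (adjusted p = 0.0437) and DESeq2 (0.0285) called. By limma its adjusted p ran from 0.00860 to 0.180 with 1 library left out. Of 17 tested genes that GDF9, BMP15 or FGF8 regulate in granulosa cells, 2 rose, where 3.09% of all tested genes did. The libraries are of oocytes, so these values do not measure that regulation, and which cells gave the RNA was not tested. Id3, a target of BMP signalling, was at 1424, 1921 and 1542 in KO libraries and at 743, 890, 636 and 983 in WT libraries, without overlap (log2 fold change 1.01, SE 0.16; adjusted p = 0.000713). Ldha, a glycolysis gene, had 1.82, 18.2 and 27.3 in KO libraries and 0 to 2.86 in WT libraries (adjusted p = 0.0426; lost without KO 2, KO 3, WT 2, WT 3 or WT 4, up to 0.192). Its high values were those of KO 2 and KO 3, the libraries with more Inha RNA. Of 6 other secreted oocyte products none was called by limma, and 1 each by edgeR and DESeq2. At an unadjusted limma p under 0.05 there was 1, against 21.8% of all tested genes. Zp3 of the zona pellucida averaged 51495 ± 27055 in KO and 50126 ± 9398 in WT (adjusted p = 0.945). The gene with an unadjusted p under 0.05 was Zp2, named after its values were seen, with 49401 ± 17918 in KO and 29215 ± 6973 in WT. Its groups overlapped, and limma did not call it (adjusted p = 0.229).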

How the data were processed

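Per the submitters' processing notes, the authors used cutadapt, FastQC, STAR, DESeq and DESeq2 with the genome build GRCm38 (mm10). How reads were counted is not given. The deposited signal values are gene counts that were divided by a library's size factor (0.914 to 1.10): dividing each library by its smallest step gave whole reads, within 0.05, for at least 99.9% of values. Nextera XT libraries carry no strand.

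The main test was limma (3.58.1, R 4.3.3) with trend and robust estimation on log2(value + 1), for the 19227 genes that reached a value of 1 in 3 or more libraries, with Benjamini-Hochberg adjustment over all of them. Fold changes on this scale understate those of low genes. edgeR (4.0.16) and DESeq2 (1.42.0) were run on the recovered reads. The fits were tested on simulated data.

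The members and lists were chosen with earlier results of these data known. Named genes are the members, Mfn1 and Mfn2, for each list the called genes or else the one with most reads, and the 3 nearest profiles of Gdf9 and Bmp15. Spry1, Etv5, Fgf9, Tgfbr1, Bmpr2, Smad2, Smad3, Furin, Figla, Zp2, Txndc5 and the marker genes given with values fall outside this rule. They were chosen with their values known. Of 122 list genes, 101 had a row, and the others were not analysed here.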

Additional observations from a re-analysis of the deposited data

Results flagged for a closer look

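Each set of 4 WT values was checked for 1 library far from the other 3 by Dixon's criterion at 95%, for 34 quantities. Chance gives such a gap in about 1 in 20 groups, and 2 were found. WT 1 had 333 normalised counts of Bmp6, against 389 to 396 in the other WT libraries. WT 4 had 768 of Spry1, against 541 to 558 in the others. KO groups of 3 were not checked.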

How the results depend on the processing

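Gdf9, Fgf8 and Oosp2 kept the sign of their log2 fold change under every alternative run. Fgf8 passed the threshold in 5 of them: DESeq2 (log2 fold change -0.46, adjusted p = 0.0319), no filter on low values (-0.45, 0.0283), a mean value of at least 10 (-0.45, 0.0489), and without KO 1 or WT 4 (-0.53 and -0.54). In these the count of called factors was 1. Without WT 2 the Fgf8 value was -0.37. The other 4 factors, never called, turned sign. With the granulosa marker mean as covariate the value was 0.10 for Bmp15, 0.031 for Bmp6, -0.089 for Oosp1 and -0.039 for Oosp3. Without KO 2 and KO 3 together, which leaves 1 KO library assumed to vary like WT, it was 0.020 for Bmp15, -0.10 for Oosp1 and -0.021 for Oosp3. With 1 library left out, values ran from -0.11 to 0.021 for Bmp15, from -0.10 to 0.053 for Oosp1 and from -0.0081 to 0.15 for Oosp3, with 0 to 1 factors called. The causes were not tested.

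Pathway calls, 9 as reported, numbered 1 without trend or robust estimation, 0 without KO 2 and KO 3, 0 with the covariate and 5 to 14 with 1 library left out. Calls over all genes, 1291 as reported, were 106, 130 and 3 in the same fits and 604 to 1772 with 1 library left out. The Gdf9 to Bmp15 ratio of 4.23 was 2.49 by coding length and 2.70 by gene span.

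Same-numbered KO and WT libraries did not deviate together over all tested genes (correlations -0.12, 0.026 and 0.022). The labels do not say whether the numbers pair libraries, and these correlations cannot tell whether some share a batch. The replicate block, in which WT 4 has no partner, gave 0.021 for Bmp15, -0.54 for Fgf8 (adjusted p = 0.0515) and 0.041 for Zp3, with 0 factors, 7 pathway genes and 1022 genes called.

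Some pathway genes that were not called also turned sign. Without KO 2 and KO 3 the values were -0.026 for Bmpr1b, 0.11 for Nobox and 0.011 for Smad3, and with the covariate -0.10, 0.085 and 0.072. edgeR and DESeq2 gave 0.0059 and 0.00093 for Nobox and 0.042 and 0.039 for Zp3. With 1 library left out, the range was -0.33 to 0.28 for Nobox, -0.47 to 0.21 for Zp3 and -0.18 to 0.021 for Bmpr2.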
